A study of Mus musculus with 30 samples.

Results

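The heme synthesis enzymes described here are the 7 genes Alas1, Alad, Uros, Urod, Cpox, Ppox and Fech, taken by symbol from a table of 21841 genes in mammary tumors of MMTV-PyMT mice. All 7 were in the table, and all 7 passed the filter on low counts, as did 13663 genes in all. The labelled strain is FVB/N-Tg(MMTV-PyVT)634Mul/J, in which the MMTV promoter drives the polyoma middle T antigen in mammary epithelium, so that tumors arise spontaneously. The labels give the genotype WT and the tissue Breast for all 30 libraries and do not give the age of the mice. Each of 6 groups held 5 libraries. Of these groups 3 received no KCL-HO-1i, namely vehicle, 5-fluorouracil (5-FU) and gemcitabine. The other 3 received KCL-HO-1i, either alone or combined with one of the chemotherapies (KCL-HO-1i/gemcitabine and KCL-HO-1i/5-FU). All agents were injected intraperitoneally. KCL-HO-1i inhibits heme oxygenase-1, the enzyme that degrades heme, and 5-FU and gemcitabine are cytotoxic chemotherapies that disturb DNA synthesis. The labels state a treatment of 72 h. Per the labels gemcitabine was dosed at 64 mg/kg every 7 days, 5-FU at 40 mg/kg on a 4-day schedule and KCL-HO-1i at 25 µmol/kg each day. The text of the study differs from the labels in the duration and in the gemcitabine dose, both of which are smaller there.

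Heme is an iron-containing porphyrin that serves as the prosthetic group of cytochromes, catalases and hemoglobin. Its synthesis starts in mitochondria, where ALAS1 joins glycine and succinyl-CoA in the rate-limiting step of non-erythroid cells, continues in the cytosol through enzymes that include ALAD, UROS and UROD, and returns to mitochondria for CPOX, PPOX and FECH, the last of which inserts iron into protoporphyrin. Heme itself represses Alas1, and heme oxygenases remove heme, so that synthesis and breakdown share a pool. Alas2, the erythroid form of the first enzyme, is described beside the 7 enzymes because it belongs to the same route.

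The promoters of Alas1 and Cpox are shown because these were the 2 enzymes with the smallest unadjusted p-values when groups with and without KCL-HO-1i were compared. Sequences are from RefSeq, assembly GRCm38.p6, and span 250 bases before to 50 bases after a transcription start. Capitals mark matches to GCATGCGC, a motif of the factor NRF1, on either strand. NRF1 activates nuclear genes for mitochondrial proteins.
Alas1, chr9:106247681-106247980, minus strand: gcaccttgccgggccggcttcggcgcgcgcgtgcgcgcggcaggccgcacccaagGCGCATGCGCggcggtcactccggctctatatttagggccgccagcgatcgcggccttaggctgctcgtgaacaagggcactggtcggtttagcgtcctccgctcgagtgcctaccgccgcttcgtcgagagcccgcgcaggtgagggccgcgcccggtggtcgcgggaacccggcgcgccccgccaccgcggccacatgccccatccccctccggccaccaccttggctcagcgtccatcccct
Cpox, chr16:58669958-58670257, plus strand: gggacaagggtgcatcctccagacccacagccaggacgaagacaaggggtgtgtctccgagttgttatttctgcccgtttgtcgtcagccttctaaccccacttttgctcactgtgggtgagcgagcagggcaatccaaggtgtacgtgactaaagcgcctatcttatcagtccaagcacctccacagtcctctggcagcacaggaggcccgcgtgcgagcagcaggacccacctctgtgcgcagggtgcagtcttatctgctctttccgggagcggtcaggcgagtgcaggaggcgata
The windows of the 2 listed Alas1 starts overlap and hold the same 2 overlapping matches to this motif, 1 on each strand. In the start shown they began 195 and 193 bases before it. In the other window they began at bases 30 and 32 counted from its start, and thus after it. The motif was in 2.71% of 32851 promoters of the same length and in none of the promoters listed for Alad, Uros, Urod, Cpox and Ppox. Of the other motifs searched on both strands, the GC box GGGCGG was in 35.66% of promoters, CCAAT in 37.41%, the E-box CACGTG in 7.15% and TGACNNNGC, a core of the antioxidant response element, in 12.39%. The Cpox promoter held none of the 5. The Ppox promoter held 4 CCAAT matches, and no promoter listed for Alas1, Alad, Uros, Urod, Cpox or Ppox held TGACNNNGC. The promoter of Fech was not searched. These matches describe letters only, and binding was not measured.

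Total counts ran from 10067577 to 13622264 per library, and mitochondrial transcripts made up 1.44% to 9.69% of them. The tumor label was checked with 10 luminal epithelium markers, all of which had reads, and their summed level ran from 2856 to 6485 CPM, counts scaled to the effective size of each library. Reads were found for 11 of 12 erythroid markers, and their sum ran from 4.74 to 703 CPM, with Epb42 at 0 in every library. Markers of tissue around the tumor were uneven. All 10 skeletal muscle markers had reads, with a median sum of 53.7 CPM (1.64 to 12195) in the 15 libraries with KCL-HO-1i and 4.27 CPM (1.22 to 224) in the 15 without. For 10 adipocyte markers the medians were 328 (19.0 to 8628) and 59.5 CPM (19.6 to 1767). For 8 fibroblast markers the medians were 1784 (168 to 12516) and 700 CPM (91.11 to 3353). KCL-HO-1i replicate 4 and KCL-HO-1i/gemcitabine replicate 2 had the highest muscle and adipocyte sums of all libraries. A second fit left both out, a choice made after seeing the data, and fold changes of single genes that it moved by over 1.5 times or turned in sign are also given without them. For 9 macrophage markers the medians were 443 (292 to 810) with KCL-HO-1i and 286 CPM (74.6 to 625) without, and in the KCL-HO-1i average all 9 had fold changes above 0, with a median of 0.79 and 8 unadjusted p-values under 0.05, of which 0 passed adjustment. In bulk tissue, fewer cells of a type and less RNA per cell cannot be told apart. Hmox1, the gene of the inhibited enzyme, was 5.36-fold higher in the KCL-HO-1i average (log2 fold change 2.42 ± 0.38 SE, edgeR adjusted p = 0.0113). Without both libraries Hmox1 had 2.35 (edgeR adjusted p = 0.0479). With the number in the library code of the labels as a covariate it had 2.27 and lost the call (edgeR adjusted p = 0.454). The part of macrophages in its difference was not tested.

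The enzymes differed widely in level. Per kilobase of the longest coding transcript in GENCODE M21, Alad had the highest mean over the 30 libraries, 42.6 ± 9.52 CPM per kb (SD, n = 30), followed by Urod with 41.1 ± 5.24. Cpox followed with 18.4 ± 3.77, Uros with 9.98 ± 2.40, Fech with 6.28 ± 1.28, Ppox with 5.87 ± 0.865 and Alas1 with 5.46 ± 1.66. Alad and Urod, with the highest levels per kb, act in the cytosol, but Uros, also cytosolic, lay below the mitochondrial Cpox. The lowest mean was that of Alas1, the first and rate-limiting step, or that of Ppox where coding length was used. The median of 13572 tested genes with a coding transcript was 8.61 CPM per kb, so that 86.6% of genes lay below Alad and 38.5% below Alas1. Within single libraries Alad exceeded Urod in 14 of 30, Fech exceeded Ppox in 18 and Ppox exceeded Alas1 in 20, so these neighbors did not separate. Cpox exceeded Uros in 29 of 30 libraries and Uros exceeded Fech in 30 of 30. Fech depended on the length used. Its annotated transcript has 6571 bases, of which 1266 are coding, and per coding kb its mean was 32.6, above Uros with 22.1.

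**Figure D1:**
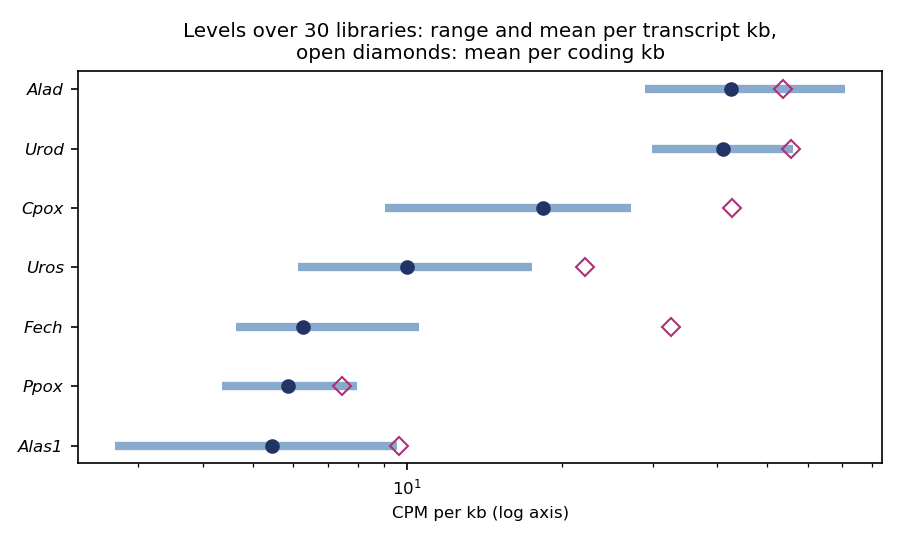
Levels of the 7 enzymes over 30 libraries, in CPM per kb on a log axis. Bars give the range and filled points the mean per transcript kb, and open diamonds the mean per coding kb; Alad and Urod were highest, and Fech moved most with the length used.

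Alas1 (chr9:106233455-106248654 in GRCm38, minus strand) encodes the mitochondrial enzyme that forms 5-aminolevulinic acid. Its vehicle libraries held 20.4, 20.1, 20.7, 22.9 and 20.5 CPM. The KCL-HO-1i/5-FU libraries held 11.9, 12.4, 12.7, 10.9 and 14.95 CPM. Every combination library thus lay below every vehicle library, a separation that 3.6% of tested genes showed in this comparison. The KCL-HO-1i libraries held 17.8, 16.8, 18.3, 32.5 and 17.1 CPM, the highest being replicate 4, and all of them also lay above the KCL-HO-1i/5-FU libraries, as in 4.41% of genes. Under 5-FU alone Alas1 held 19.3, 17.9, 24.4, 13.8 and 29.1 CPM, a wider range that overlapped the combination. Under gemcitabine it held 12.2, 18.7, 18.8, 27.6 and 25.4 CPM, and under KCL-HO-1i/gemcitabine 16.8, 23.4, 9.17, 11.4 and 18.5 CPM. Group means ran from 12.6 ± 1.51 (SD, n = 5) in KCL-HO-1i/5-FU to 20.9 ± 5.95 in 5-FU. The log2 fold change of KCL-HO-1i/5-FU was -0.73 ± 0.24 (SE) against vehicle, with a 95% interval of -1.22 to -0.25 (unadjusted p = 0.00473, edgeR adjusted p = 0.135). It was -0.74 ± 0.24 against 5-FU (adjusted p = 0.296) and -0.71 ± 0.24 against KCL-HO-1i (adjusted p = 0.144). None of these passed the threshold of 0.05. The difference between the effect of KCL-HO-1i with 5-FU and without it was -0.71 ± 0.34 (unadjusted p = 0.0447, adjusted p = 0.574). Without KCL-HO-1i replicate 4 and KCL-HO-1i/gemcitabine replicate 2 it was -0.49 (unadjusted p = 0.11), and the combination differed from KCL-HO-1i alone by -0.47 (unadjusted p = 0.0386, adjusted p = 0.377).

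**Figure D2:**
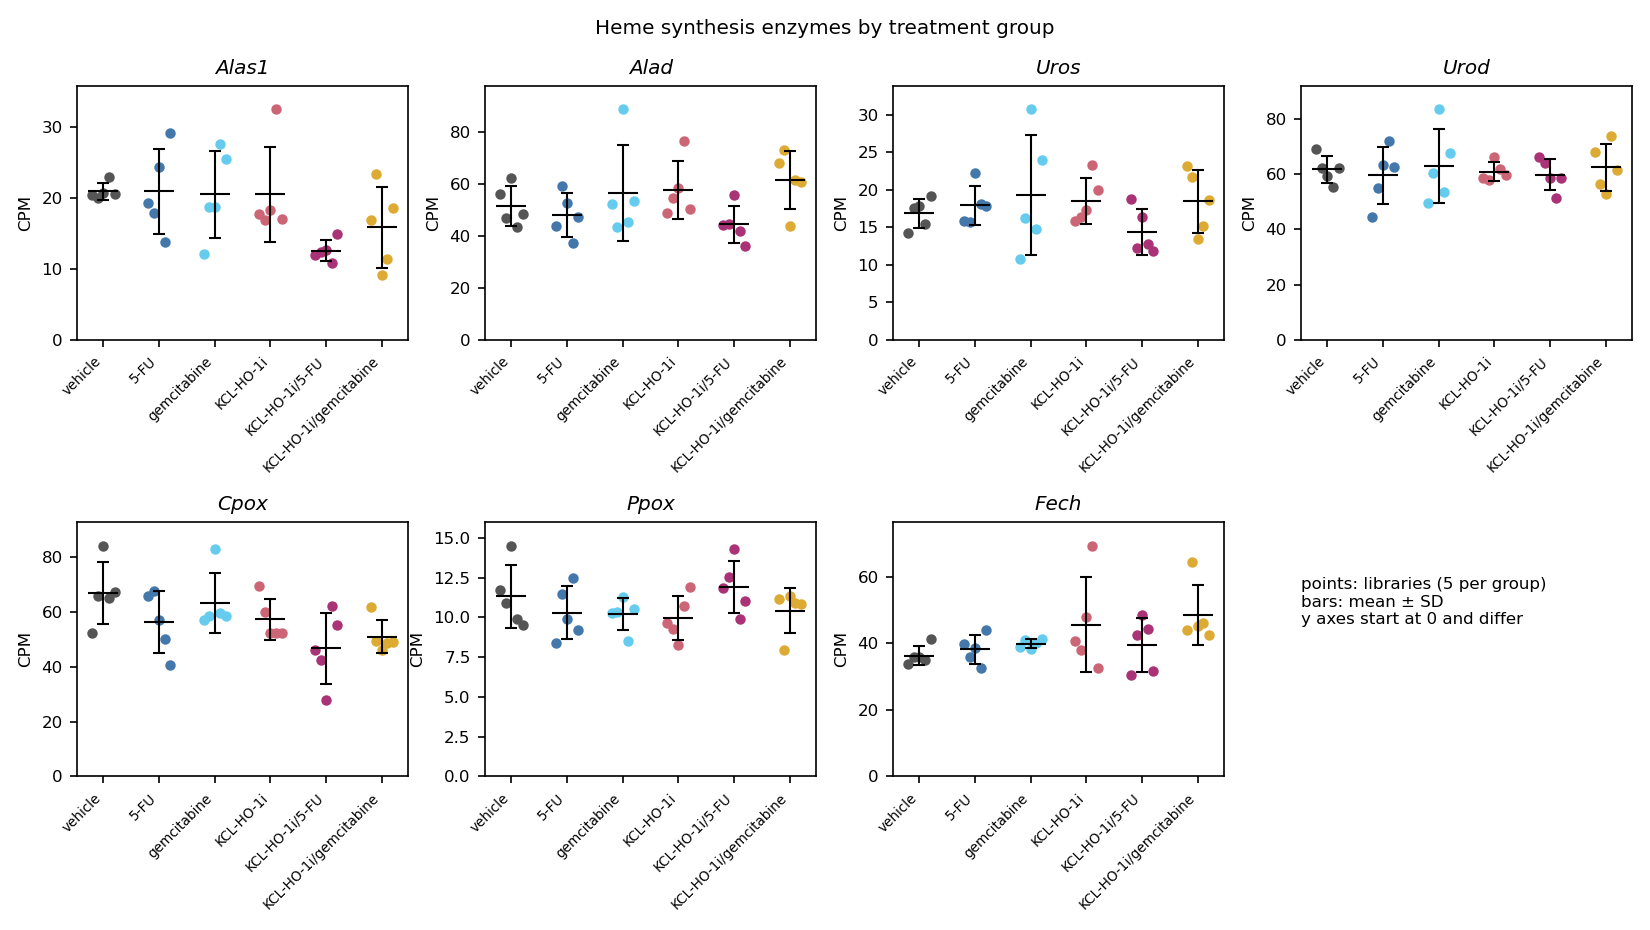
CPM of each enzyme (y axes from 0, different per panel) in the 5 libraries of each of the 6 groups, with bars for the mean ± SD. The Alas1 points of KCL-HO-1i/5-FU lie between 10.9 and 14.95 CPM, below all vehicle points, and 2 high Fech points stand out at 69.3 CPM in KCL-HO-1i and 64.3 CPM in KCL-HO-1i/gemcitabine.

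Of the 7 enzymes, 3 act in the cytosol. Alad (chr4:62509169-62519918, minus strand), which joins 2 aminolevulinic acid molecules to porphobilinogen, ran from 43.5 to 62.3 CPM in vehicle with a median of 48.5. Its means ran from 44.3 ± 7.06 (SD, n = 5) in KCL-HO-1i/5-FU to 61.3 ± 11.1 in KCL-HO-1i/gemcitabine, and all groups overlapped vehicle. Its only unadjusted p under 0.05 came from comparing KCL-HO-1i/5-FU with KCL-HO-1i, with a log2 fold change of -0.38 ± 0.18 (SE, edgeR adjusted p = 0.279). Without KCL-HO-1i replicate 4 and KCL-HO-1i/gemcitabine replicate 2 it was -0.24 (unadjusted p = 0.188). The marker differences given above for this comparison apply to Alad too. Uros (chr7:133686243-133710072, minus strand), which closes the porphyrin ring, ran from 14.3 to 19.2 CPM in vehicle. It was most variable under gemcitabine, with 10.8, 16.2, 30.8, 14.8 and 23.9 CPM. Its mean was lowest in KCL-HO-1i/5-FU, 14.4 ± 3.03 against 16.9 ± 1.97 in vehicle, within the spread of the libraries. Urod (chr4:116989965-116994413, minus strand), which removes 4 carboxyl groups from uroporphyrinogen, was the steadiest of the 7. Its group means ran from 59.5 ± 10.3 to 63.01 ± 13.5 CPM, a ratio of 1.06, and groups accounted for 2.63% of its variance in log2 CPM, against a median of 20.5% over all tested genes. Its biological coefficient of variation was 0.149, lower than in all but 15.2% of tested genes.

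Cpox and Ppox oxidize porphyrinogens in the mitochondrion. Cpox (chr16:58670292-58717636, plus strand) held 52.2, 65.7, 84.2, 65.1 and 67.3 CPM in vehicle. KCL-HO-1i/gemcitabine libraries held 61.8, 49.5, 46.1, 48.5 and 49.1 CPM. KCL-HO-1i/5-FU libraries held 46.1, 42.4, 28.0, 62.0 and 55.3 CPM. Of these 10 libraries 7 lay below the lowest vehicle library, and both groups overlapped vehicle. The mean was 66.9 ± 11.4 (SD, n = 5) in vehicle, 63.4 ± 10.9 with gemcitabine and 56.3 ± 11.2 with 5-FU. With KCL-HO-1i the mean was 57.2 ± 7.54 alone, 51.0 ± 6.16 beside gemcitabine and 46.8 ± 13.0 beside 5-FU. Against vehicle the log2 fold change was -0.39 ± 0.17 (SE) in KCL-HO-1i/gemcitabine (edgeR adjusted p = 0.19) and -0.52 ± 0.17 in KCL-HO-1i/5-FU (unadjusted p = 0.00507, adjusted p = 0.136). Ppox (chr1:171275990-171281186, minus strand) was the lowest of the 7 in CPM, from 7.95 to 14.5 over the 30 libraries. Its group means ran from 9.95 ± 1.39 in KCL-HO-1i to 11.9 ± 1.65 in KCL-HO-1i/5-FU, and no contrast had an unadjusted p under 0.05. Exons of Ppox, Cpox and Alas1 overlap B4galt3, Gpr15 and 4930500F10Rik, respectively, on the opposite strand, of which the last is not in the table. The library kit keeps strand, but how strand was set in counting is not given in the sources used here.

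Fech (chromosome 18, 64452914 to 64490251 in GRCm38, minus strand) encodes ferrochelatase, which completes heme. It held 33.8, 35.8, 35.7, 34.9 and 41.1 CPM in vehicle and 38.8, 40.9, 38.3, 40.0 and 41.2 CPM in gemcitabine. In KCL-HO-1i/gemcitabine it held 43.8, 64.3, 45.3, 46.1 and 42.6 CPM. Each of these 5 libraries lay above every vehicle library, as in 4.05% of tested genes, and above every gemcitabine library, as in 1.65% of genes. Under KCL-HO-1i alone it held 40.5, 37.9, 47.8, 69.3 and 32.4 CPM, which spanned the vehicle range. KCL-HO-1i/5-FU libraries held 30.5, 42.4, 48.4, 44.4 and 31.6 CPM, also on both sides of vehicle. The log2 fold change of KCL-HO-1i/gemcitabine was 0.42 ± 0.16 (SE) against vehicle (unadjusted p = 0.0135, edgeR adjusted p = 0.136) and 0.28 ± 0.16 against gemcitabine (adjusted p = 0.415). That of KCL-HO-1i was 0.33 ± 0.16 (unadjusted p = 0.046, adjusted p = 0.518). The highest Fech values were in KCL-HO-1i replicate 4 and KCL-HO-1i/gemcitabine replicate 2, the 2 libraries with the highest muscle and adipocyte marker sums. Without both, Fech had 0.13 in KCL-HO-1i against vehicle (unadjusted p = 0.293, adjusted p = 1), 0.29 in KCL-HO-1i/gemcitabine against vehicle (unadjusted p = 0.027) and 0.15 against gemcitabine (unadjusted p = 0.237). Stretches of at least 200 bases of Fech transcripts matched 11 other annotated genes at 95% identity or more, of which Vmn2r1 is in the table, so part of its reads could be shared with them.

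No enzyme passed the adjusted threshold in any test by edgeR. In the test among the 6 groups, 0 of 7 enzymes were called, against 0.651% of tested genes. Alas1 had the smallest p of the 7 there (unadjusted p = 0.0252, adjusted p = 0.214) and was the 1 enzyme under 0.05 without adjustment, against 18.7% of genes. Neither DESeq2 nor limma-voom called an enzyme in that test. In the 9 pairwise comparisons and both interactions, 0 enzymes and 0% of genes were called. Without adjustment, 0 of 7 enzymes had p under 0.05 for 5-FU against vehicle (3.89% of genes) and 0 for gemcitabine against vehicle (3.83%). For KCL-HO-1i against vehicle it was 1 of 7, Fech (9.43% of genes). Against vehicle it was 2, Cpox and Fech, in KCL-HO-1i/gemcitabine (19.8%) and also 2, Alas1 and Cpox, in KCL-HO-1i/5-FU (17.6%). Against the chemotherapy alone it was 0 for KCL-HO-1i/gemcitabine (13.5%) but 1, Alas1, for KCL-HO-1i/5-FU (11.4%). With KCL-HO-1i alone as the reference it was 0 for KCL-HO-1i/gemcitabine (2.66%) but 2, Alas1 and Alad, for KCL-HO-1i/5-FU (16.9%). For the interaction with 5-FU it was 1, Alas1 (8.53%), and for that with gemcitabine 0 (1.34%). Of the 35 intervals against vehicle, 34 lay within a 2-fold change in either direction, the exception being Alas1 in KCL-HO-1i/5-FU, and 25 lay within a 1.5-fold change. These 5 comparisons share the vehicle libraries. Without KCL-HO-1i replicate 4 and KCL-HO-1i/gemcitabine replicate 2, the gemcitabine combination had a log2 fold change against vehicle of -0.59 for Alas1 (unadjusted p = 0.0119, edgeR adjusted p = 0.254) and -0.39 for Cpox (unadjusted p = 0.0512, edgeR adjusted p = 0.348). Against gemcitabine alone Alas1 then had -0.57 (unadjusted p = 0.0154, edgeR adjusted p = 0.376). With all libraries, the unadjusted p of Alas1 by edgeR was not under 0.05 in either comparison.

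The KCL-HO-1i average compares the 3 groups that received KCL-HO-1i with the 3 that did not, each with its own background. In it 0 of 7 enzymes passed the threshold, against 0.0586% of genes. Without adjustment 3 of 7 had p under 0.05, against 23% of all genes. Alas1 had a log2 fold change of -0.38 ± 0.14 (SE), with 13 of 15 libraries below the mean of their background (edgeR adjusted p = 0.103). Cpox had -0.27 ± 0.098, also with 13 of 15 libraries below (adjusted p = 0.104), and Fech 0.22 ± 0.091, with 12 of 15 above (adjusted p = 0.147). Alad had 0.06 ± 0.10, Uros -0.08 ± 0.12, Urod -0.01 ± 0.073 and Ppox 0.02 ± 0.085. The median of the 7 was -0.01, beside 0.00 over all tested genes. Limma-voom with quality weights called Alas1 (log2 fold change -0.41, adjusted p = 0.0388), and leaving out KCL-HO-1i/5-FU replicate 4 called Cpox (-0.32, adjusted p = 0.0459). Without KCL-HO-1i replicate 4 and KCL-HO-1i/gemcitabine replicate 2, Alas1 had -0.52 (adjusted p = 0.138), Cpox -0.26, Fech 0.11 (adjusted p = 0.416), Alad -0.0126, Uros -0.14, Urod -0.001 and Ppox 0.0363.

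The number in the library code of the labels, which took 13 values, was also fitted as a covariate. The labels do not state what this code number stands for. Alas1 then had -0.15 (adjusted p = 0.892), Cpox 0.13 (adjusted p = 0.861) and Fech 0.40 (adjusted p = 0.475) in the KCL-HO-1i average. The sign of Cpox turned, and Alas1 and Fech moved by over 1.5 times. Of the 13 code numbers 3 held libraries with and without KCL-HO-1i, 7 libraries in all. In numbers 69, 74 and 84 the log2 difference of Alas1 was 1.22, -1.32 and -0.14. That of Cpox was 0.06, 0.33 and -0.09, and that of Fech 1.09, -0.02 and 0.33. Number 69 set KCL-HO-1i replicate 4, rich in muscle and adipocyte markers, against a 5-FU library. Number 84 set KCL-HO-1i/gemcitabine against vehicle, so that chemotherapy differed in both. Only number 74 shared a background, 5-FU. The treatment and the code are thus nearly confounded, and their parts cannot be told apart.

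**Figure D3:**
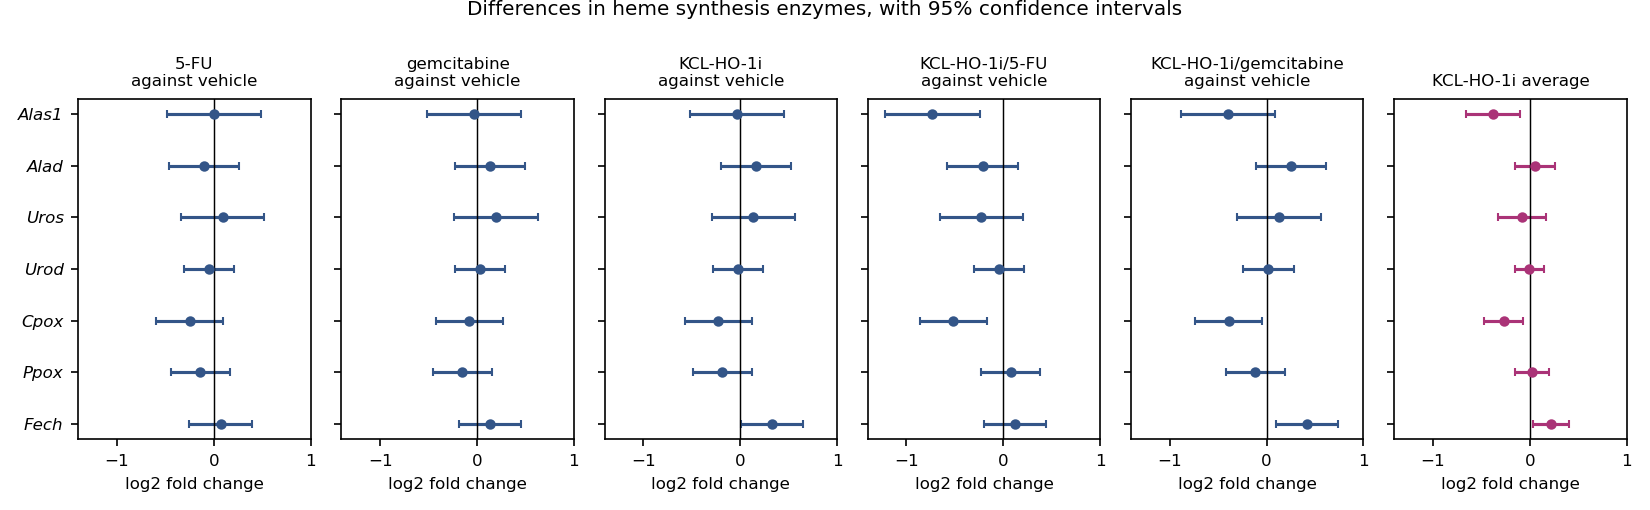
Log2 fold change of each enzyme with its 95% confidence interval for the 5 treatments against vehicle and for the KCL-HO-1i average. Intervals of Alas1 and Cpox lie below 0 in the average and in KCL-HO-1i/5-FU, that of Cpox also in KCL-HO-1i/gemcitabine, and that of Fech lies above 0 in the average, KCL-HO-1i/gemcitabine and KCL-HO-1i, before adjustment for the number of genes tested.

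The surrounding pathway was described by lists of genes. Alas2, the erythroid first enzyme, was low, from 0 to 8.45 CPM. Vehicle libraries held 17 to 78 counts of it and KCL-HO-1i libraries 39 to 111, whereas gemcitabine libraries held 0 to 50 and KCL-HO-1i/gemcitabine libraries 3 to 11. Its mean was 4.19 ± 2.23 CPM (SD, n = 5) in vehicle, and KCL-HO-1i/gemcitabine had 0.661 ± 0.301, a log2 fold change of -2.65 ± 0.80 (SE, edgeR adjusted p = 0.0921). All 5 erythroid markers tested, a list that holds Alas2, had fold changes below 0 in this comparison, 4 with an unadjusted p under 0.05, with a median of -3.185. Their summed level had a median of 37.6 CPM (4.90 to 91.4) in KCL-HO-1i/gemcitabine and 297 CPM (83.01 to 454) in vehicle. Gemcitabine alone had a lower median, 7.23 CPM, with a wide range (4.74 to 703). The median was 79.7 CPM in KCL-HO-1i/5-FU, 170 in 5-FU and 310 in KCL-HO-1i. The part of erythroid cells in the difference of Alas2 was not tested. Of 17 genes for mitochondrial transport and partners of heme synthesis, 0 passed the threshold in the KCL-HO-1i average, with 6 fold changes above 0, 11 below and a median of -0.04. Abcb6, a porphyrin transporter, had -0.35 ± 0.12 (adjusted p = 0.102). Of 9 regulators of Alas1 and heme genes, 0 passed, 7 lying above 0 and 2 below, with a median of 0.09. Nr1d1, a heme-binding circadian repressor, had 0.92 ± 0.33 (adjusted p = 0.105), and Ncor1, its corepressor, -0.17 ± 0.063 (adjusted p = 0.123). Without KCL-HO-1i replicate 4 and KCL-HO-1i/gemcitabine replicate 2, Nr1d1 had 0.30 ± 0.23 (adjusted p = 0.516). Of 3 genes for heme a and cytochrome c assembly 0 passed. Cox10, the heme a farnesyltransferase, had -0.12 ± 0.13, and Hccs, which attaches heme to cytochrome c, had 0.06 ± 0.12. Without the same 2 libraries Cox10 had -0.27 ± 0.11 (adjusted p = 0.216) and Hccs -0.08 ± 0.088 (adjusted p = 0.645). Of 8 genes for heme breakdown and transport 1 passed, Hmox1. Blvrb, a biliverdin reductase, had 0.47 ± 0.12 (adjusted p = 0.0525).

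The enzymes were next compared with each other across the 30 libraries after subtracting group means from log2 CPM. Of the 21 pairs, 6 had a permutation p under 0.05, all positive, or 28.6% of pairs. An absolute r at least as large as the smallest of these, 0.389, was found in 20.3% of all 93331953 pairs of tested genes. The median r of the 21 pairs was 0.17, beside -0.01 over all pairs. The highest r was between Alad and Uros, 0.60 (Spearman's rho 0.50, permutation p = 0.00407 and 0.0119), followed by Uros and Urod, 0.58 (rho 0.49, permutation p = 0.00868 and 0.0232). Without the 2 libraries farthest from the median of the first gene these were 0.41 and 0.36. Alad and Urod had r = 0.38 (rho 0.38, permutation p = 0.102 and 0.0667), which was 0.11 without the 2 farthest libraries. Alas1 and Fech, the first and the last enzyme, had r = 0.49 (rho 0.42, permutation p = 0.00973 and 0.0271), which was 0.22 without the 2 farthest libraries and thus rested on them. Alas1 and Uros had r = 0.48 (rho 0.42, permutation p = 0.0319 and 0.0507), Alad and Fech 0.41 (rho 0.30, permutation p = 0.022 and 0.127) and Urod and Ppox 0.39 (rho 0.36, permutation p = 0.0423 and 0.0703). Without their 2 farthest libraries they had r = 0.41, 0.52 and 0.28. Cpox stood apart from the other 6, with r from -0.26 to 0.10. The p-values of these 21 pairs are not adjusted.

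**Figure D4:**
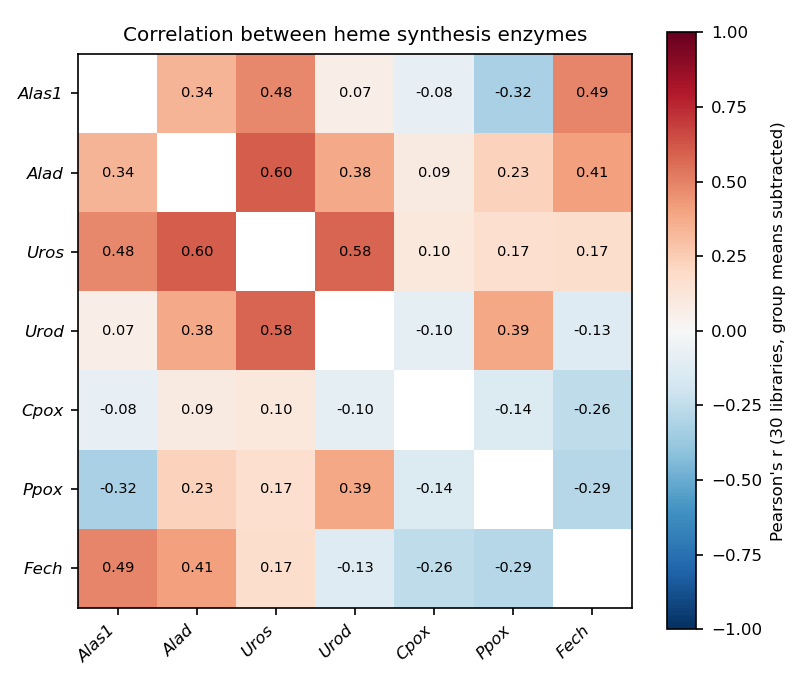
Pearson's r between the 7 enzymes over 30 libraries with group means subtracted. Values among Alad, Uros and Urod are positive, from 0.38 to 0.60, the lowest being that of Alad and Urod. Cpox has values from -0.26 to 0.10 with the other 6.

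Levels of 3 enzymes moved with markers of cells other than tumor epithelium. Of 63 relations between an enzyme and the mean log2 CPM of a marker list or the mitochondrial share, 9 had an adjusted permutation p under 0.05, with group means subtracted. The share of all tested genes that follow these scores as closely was not computed. The relations are thus not shown to be particular to the enzymes. Fech had r = 0.73 with 7 endothelium markers (rho 0.65, permutation p = 0.00014 and 0.00065, adjusted p = 0.00882), and 0.65 without the 2 farthest libraries. It also had r = 0.58 with adipocyte, 0.49 with macrophage, 0.48 with erythroid and 0.54 with fibroblast markers (adjusted permutation p = 0.0172, 0.029, 0.029 and 0.029). Alas1 had r = 0.63 with endothelium markers (rho 0.63) and 0.64 with adipocyte markers (rho 0.60), with adjusted permutation p = 0.0172 and 0.029. Cpox ran the other way, with r = -0.54 against endothelium markers (rho -0.34, permutation p = 0.00401 and 0.081, adjusted p = 0.029), which was -0.45 without the 2 farthest libraries. With luminal epithelium markers Cpox had r = 0.58 (rho 0.60, permutation p = 0.00825 and 0.00106, adjusted p = 0.051), which was 0.42 without the 2 farthest libraries and narrowly missed the threshold. The ninth relation was that of Uros with the mitochondrial share, r = 0.45 (rho 0.45, adjusted permutation p = 0.029). Endothelium sums had a median of 86.4 CPM (50.1 to 468) with KCL-HO-1i and 75.3 CPM (53.4 to 154) without. With the adipocyte score as a covariate, the KCL-HO-1i average was -0.58 for Alas1 (adjusted p = 0.125) and 0.09 for Fech (adjusted p = 0.715). The part of these cells in the differences between groups was not tested further.

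**Figure D5:**
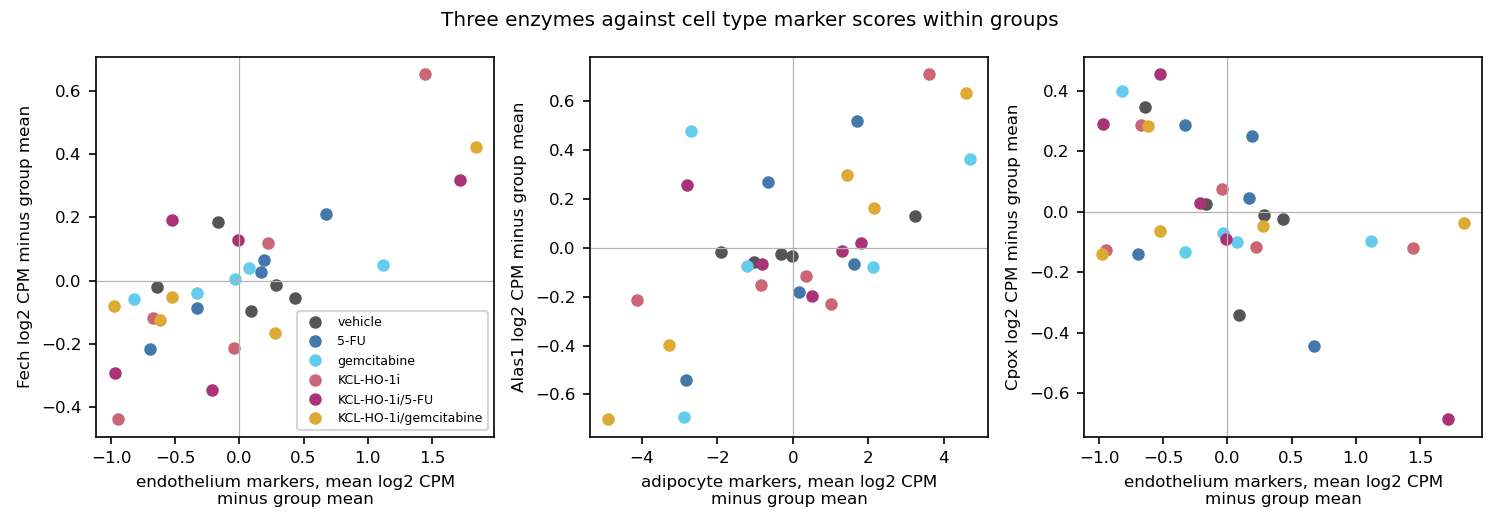
Log2 CPM of Fech, Alas1 and Cpox against marker scores (mean log2 CPM of endothelium or adipocyte markers), each minus its group mean, with 1 point per library colored by group. Fech and Alas1 rise with the scores, with r = 0.73 and 0.64, and Cpox falls, with r = -0.54, with few libraries at the far right.

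The genes whose pattern over the 30 libraries was most like the mean of the 7 standardized enzymes were Sephs2, a selenophosphate synthetase (r = 0.84), Thrsp, a lipogenesis gene (0.83), Slc5a6, a vitamin transporter (0.83), Sprr1a, an epithelial envelope protein (0.82), and Taldo1, a pentose phosphate enzyme (0.80). With group means subtracted these values were 0.80, 0.80, 0.79, 0.82 and 0.81. Single enzymes differed in their nearest genes, which were looked up after values were seen. For Cpox these were Iars, a transfer RNA synthetase (0.89), Fen1, a DNA replication nuclease (0.87), and Wee1, a cell cycle kinase (0.85). For Fech they were Clic5 (0.86), Tns1 (0.84) and Atp1b2 (0.84). Alas1 had Duox2 at 0.71, Alad Endog at 0.80, Uros Thrsp at 0.80, Urod Rab9 at 0.78 and Ppox Cbr1 at 0.65. These coefficients describe the libraries, which share differences in tissue makeup, and carry no test.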

How the data were processed

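Total RNA of tumors was sequenced with a directional kit, per the labels. The authors, per their methods and processing notes, checked reads with FastQC 0.11.9, aligned with STAR 2.7.9a, quantified with Salmon 1.9.0 and summed to genes with tximport; the notes name mm10, and the annotation release is not given in the sources used here. The deposited table holds expected counts per gene, unscaled, although the methods speak of TPM counts. This was read from the values, of which 38.0% were not whole. They were rounded here.

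The main test was that of edgeR 4.0.16 under R 4.3.3 (TMM, robust quasi-likelihood, 6 group means, all 30 libraries, filterByExpr with minimum count 10), in 12 contrasts and a test among groups, with Benjamini-Hochberg adjustment over 13663 genes and a threshold of 0.05. The 8178 genes left out held 0.0564% of counts. Tests are two-sided. They were run on simulated counts with planted changes larger than any difference between group means of the enzymes. Detection of differences as small as those of the enzymes was thus not checked. DESeq2 1.42.0 and limma 3.58.1 voom were alternatives, beside other filters, covariates and leaving out each library. CPM used effective library sizes, and log2 CPM a prior count of 2. Correlations used 100000 shuffles of libraries within groups, for which the smallest p is 1e-05. Intervals and limits cover counting and library spread only. The study describes its groups as cohorts of mice and their tumors, and libraries were taken as separate mice, although the labels do not state this. Gene positions and lengths came from GENCODE M21 (GRCm38). The lowest chi-square per degree of freedom over the 60 pairs of libraries within groups was 19.6, so none was a repeat sequencing of the same library. This check does not cover pairs across groups or several samples from the same mouse.

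Groups came from the treatment label. Named genes were the 7 enzymes, Alas2, listed pathway genes past the threshold or with the 2 smallest p-values of their list in the KCL-HO-1i average, and the 5 genes most like the mean of the enzymes. Some of the genes this rule names are not reported here. Members and lists were chosen with earlier results of these data known.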

Additional observations from a re-analysis of the deposited data

Results flagged for a closer look

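Of 42 sets of 5 libraries (7 enzymes in 6 groups), 8 had 1 library far from the other 4 by Dixon's ratio. Its critical value flags about 1 in 20 sets of independent, normally distributed values. The ratio was taken on CPM without logs, and the enzymes share libraries. The share flagged over all tested genes was not computed, so 8 cannot be called many or few. Alas1 was high in vehicle replicate 4 (22.9 CPM) and KCL-HO-1i replicate 4 (32.5 CPM). Alad and Cpox were high in gemcitabine replicate 3 (88.6 and 82.9 CPM). Cpox was high in KCL-HO-1i/gemcitabine replicate 1 (61.8 CPM). In KCL-HO-1i/gemcitabine replicate 2, Ppox was low (7.95 CPM) and Fech high (64.3 CPM). Fech was high in vehicle replicate 5 (41.1 CPM). KCL-HO-1i replicate 4 and KCL-HO-1i/gemcitabine replicate 2 also had the highest adipocyte marker sums, 8337 and 8628 CPM, beside a median of 80.4 CPM over all libraries, and the part of these cells was not tested.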

How the results depend on the processing

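Over 3717 tests of the enzymes under alternatives, 2 were called. In the KCL-HO-1i average the number of called enzymes was 1 with limma-voom (Alas1) and ran from 0 to 1 when each library was left out (Cpox being called without KCL-HO-1i/5-FU replicate 4). The other 12 tests called 0 under every alternative run. Signs turned only for small differences and for Cpox. Alad had -0.0324 with the adipocyte covariate and -0.0126 without the 2 libraries rich in muscle markers, and Urod had 0.0525 with limma-voom. With the code number as a covariate Uros had 0.052, Cpox 0.13 and Ppox -0.0192. Leaving out each library gave -0.46 to -0.34 for Alas1, 0.0091 to 0.13 for Alad, -0.15 to -0.0048 for Uros, -0.0497 to 0.0329 for Urod, -0.32 to -0.22 for Cpox, -0.0166 to 0.0431 for Ppox and 0.15 to 0.25 for Fech, the lowest Fech value without KCL-HO-1i replicate 4. Over all genes, 89 were called among groups, and 953 by DESeq2, 251 by limma-voom and 59 at a mean of at least 50 counts. There were 4 without the 2 libraries rich in muscle markers, 1 with the replicate block and 2 with the code number. The luminal covariate gave 0 and the adipocyte covariate 1. In the KCL-HO-1i average 8 were called, and 1139 by DESeq2, 263 by limma-voom, 0 with the code number and 2 with either marker covariate. Without single libraries these ran from 6 (without vehicle replicate 5) to 231 among groups and from 3 (without vehicle replicate 5) to 1130 in the average, both highest without gemcitabine replicate 5. Same-numbered libraries did not pair (mean residual correlation 0.00860 over 75 pairs), and the replicate block gave 0 called enzymes and -0.37 for Alas1 in the average. Of pairs of enzymes, 4 to 6 had p under 0.05 without single libraries. By coding length, in the order of levels among the 7, Urod came to place 1, Alad to 2, Fech to 4, Uros to 5, Alas1 to 6 and Ppox to 7. The causes were not tested. With 5 libraries per group, 10 of the 35 intervals against vehicle reached beyond a 1.5-fold change.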
